A study of Mus musculus with 8 samples.

Results

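Apoe and 8 other genes of the liver X receptor (LXR) pathway were followed by RNA sequencing in monocytes with high Ly6C (Ly6Chigh, the inflammatory subset) that were sorted from mouse spleens at day 7 after an aneurysm had been induced. The groups were 4 libraries from Olfr2 knockout mice (KO) and 4 libraries from wild-type mice (WT). Olfr2 encodes an olfactory receptor. The labels give neither the way the aneurysm was induced nor age, sex, strain or any other allele, and nothing in them ties a library to its own animal, so that errors describe the spread between libraries. The 9 genes were Apoe, Apoc2, Abca1, Abcg1, Nr1h2, Nr1h3, Mylip, Lpcat3 and Srebf1, out of 56748 genes listed. They are LXR sensors and targets, and the set was chosen by the Apoe level in these same libraries, which was lower in KO than in WT. KO minus WT differences of the 9 genes are therefore given as descriptions without a test.

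LXRs are nuclear receptors that bind oxysterols, the oxidised forms of cholesterol that build up when a cell holds too much of it. Paired with a retinoid X receptor (RXR), they raise transcription of genes that move cholesterol out of the cell, lower its uptake and change the make-up of membranes and fatty acids. In monocytes and macrophages this route is known for handing cholesterol to high-density lipoprotein and for limiting foam cell formation in the arterial wall.

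Total counts lay between 17258427 and 21728794 in KO and between 16111725 and 19048245 in WT, and 11222 genes passed the filter on low counts. Olfr2 had 0 counts in all 8 libraries, which allows up to 0.139 to 0.186 CPM (counts scaled to a common library size) and leaves the genotype labels unchecked by it. The 12 classical monocyte markers were all detected and summed to between 147775 and 188843 CPM in KO and between 124023 and 147486 CPM in WT. Most of this sum came from Lyz2 and Chil3. The log2 changes of the 12 ran from -1.11 to 1.40, with 4 negative and 8 positive. The most abundant were Lyz2, at 116018 ± 7462 CPM in KO and 105745 ± 8904 CPM in WT, and Chil3, at 28499 ± 12698 CPM in KO and 10785 ± 2655 CPM in WT (SD, n = 4 each; edgeR adjusted p = 0.525 and 0.0786). KO 1 and KO 2 stood apart: 12 neutrophil markers summed to 2390 and 3700 CPM there and to 629 and 813 CPM in KO 4 and KO 3, against 292 to 617 CPM in WT, and 8 progenitor markers to 175 and 260 CPM against 41.2 to 61.5 CPM in the other 6 libraries. By the numbers in their column names, the libraries form a 1600 series (KO 1, KO 2, WT 1 and WT 2) and a 1700 series (KO 3, KO 4, WT 3 and WT 4), whose meaning the labels leave unstated.

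The promoters of Apoe and Abca1 are shown because these were the most abundant and the least abundant of the members that passed the filter, and because Abca1 held the closest match to the LXR element among the 8 members with a RefSeq promoter (GRCm38.p6, 250 bases before to 50 after the start, all members but Abcg1). The element is a direct repeat of AGGTCA with any 4 bases between its 2 copies (DR4), searched on both strands. Capitals mark the 2 hexamers of the best match, printed on the strand of the gene (Apoe at chr7:19699139-19699438, minus strand; Abca1 at chr4:53159846-53160145, minus strand).
Apoe: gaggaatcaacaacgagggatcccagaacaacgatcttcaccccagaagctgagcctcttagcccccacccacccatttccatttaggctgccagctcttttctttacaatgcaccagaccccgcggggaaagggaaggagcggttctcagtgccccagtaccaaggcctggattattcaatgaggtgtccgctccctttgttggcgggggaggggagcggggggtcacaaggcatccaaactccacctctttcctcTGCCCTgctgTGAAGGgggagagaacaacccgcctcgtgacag
Abca1: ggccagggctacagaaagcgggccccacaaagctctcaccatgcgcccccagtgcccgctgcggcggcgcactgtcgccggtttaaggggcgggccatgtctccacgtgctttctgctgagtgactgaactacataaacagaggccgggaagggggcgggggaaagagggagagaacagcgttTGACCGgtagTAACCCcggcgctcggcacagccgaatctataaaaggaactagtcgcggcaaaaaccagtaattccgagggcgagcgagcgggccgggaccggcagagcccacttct
The best match lay on the opposite strand in each, starting 7 bases after the start site in Apoe and at -67 in Abca1, and had 4 mismatches in Apoe and 3 in Abca1. Of 32851 promoter windows of 27025 genes, 76.9% held a match with at most 4 mismatches, 21.9% with at most 3 and 0.0152% an exact one. Apoc2, Nr1h2, Nr1h3, Lpcat3 and Srebf1 also had 4 mismatches at best, and Mylip 5. The Abca1 window also held the TATA box letters TATAAA, present in 13.6% of windows, and the E-box letters CACGTG, present in 7.15%. Such matches describe the letters of these windows and do not show whether a site is bound. Elements outside the windows were not searched.

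The members spanned a range from Apoe, among the most abundant transcripts of these cells, to Apoc2, whose counts, at a locus shared with another gene model, were at the edge of detection. On the scale of CPM per kilobase of exon, which permits levels of different genes to be compared, Apoe averaged 612 over the 8 libraries and ranked 105 of 20153 genes with a level above 0. Lpcat3 followed at 17.1, Nr1h2 at 9.29, Nr1h3 at 5.61, Mylip at 1.21, Abcg1 at 1.08, Srebf1 at 0.47, Abca1 at 0.055 and Apoc2 at 0.026. Per kilobase of the longest transcript in place of all exons, Apoe averaged 929 and Nr1h2 15.6. By this length Lpcat3 averaged 21.9 and Nr1h2 18.5 in WT, and their order turned in WT 2. The orders by library that follow are per kilobase of all exons and can depend on this choice. The order Apoe, Lpcat3, Nr1h2 held in 8 of 8 libraries with ranges that did not meet. So did the steps from Nr1h3 to Mylip and from Srebf1 to Abca1. Abcg1 was above Srebf1 in 8 of 8 libraries although their ranges over libraries met. Nr1h2 was above Nr1h3 in 7 of 8 libraries, and Mylip above Abcg1 in 4 of 8, so that Mylip and Abcg1 could not be ordered. Apoe made up 91.9 ± 2.6% of the summed per-length level of the 9 members in KO and 95.7 ± 1.0% in WT (SD, n = 4 each).

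**Figure D1:**
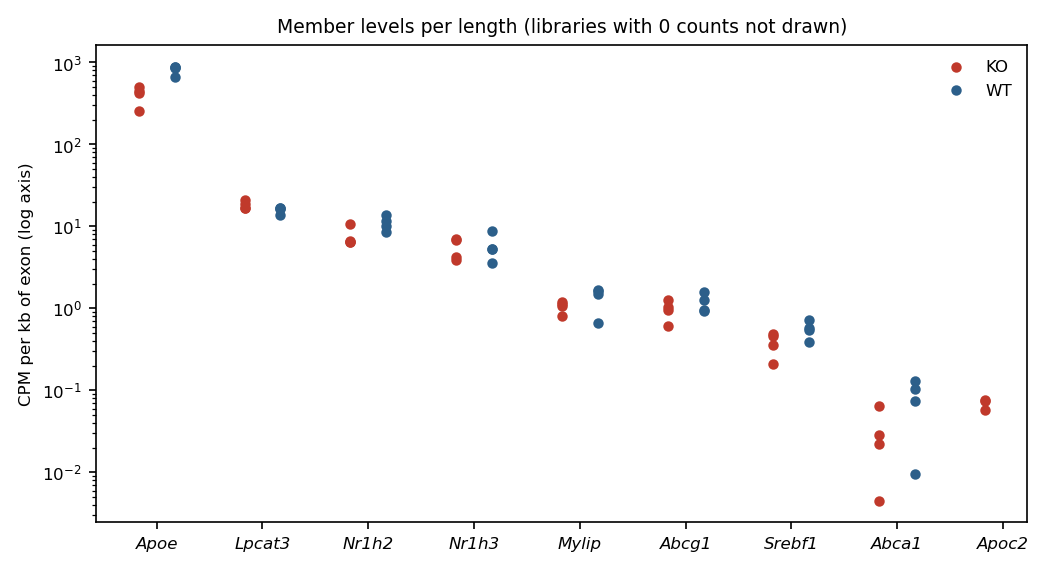
Level of each member per kilobase of exon (CPM per kb, log axis), with 1 point per library, KO left and WT right. Apoe lies between 257 and 877 in all 8 libraries, and the next gene, Lpcat3, between 13.9 and 21.2; libraries with 0 counts, all of them for Apoc2, are not drawn.

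Apoe encodes apolipoprotein E, a secreted lipid carrier that accepts cellular cholesterol and is bound by lipoprotein receptors (GRCm38 chromosome 7, 19696109 to 19699188, minus strand, 5 exon blocks). It was present at 897, 549, 1088 and 962 CPM in KO 1 to 4, against 1421, 1860.5, 1875 and 1808 CPM in WT 1 to 4. Every KO library lay below every WT library, KO 2 was the lowest of all and WT 1 the lowest of WT. The means were 874 ± 231 CPM in KO and 1741 ± 215 CPM in WT (SD, n = 4 each), a log2 difference of -0.99 ± 0.18 (SE), or 0.502 of the WT level. Within the 1600 series the difference was -1.18 ± 0.22 and within the 1700 series -0.85 ± 0.21, and it was -0.75 ± 0.16 without both KO 1 and KO 2. The Apoe transcript lies at percentile 96.4 of GC content among tested genes, and when each library was corrected by offsets for the length and GC content of transcripts, the difference was -0.64 ± 0.21. In bulk RNA, fewer cells of a type and less RNA per cell cannot be told apart. The neutrophil marker sum was highest in KO 2, the library with the lowest Apoe, and came there mostly from S100a8 (1582 CPM), Mmp8 (819 CPM) and S100a9 (789 CPM). Ly6g was low but also highest in KO 1 and KO 2, at 18 and 15 counts (1.08 and 0.92 CPM). In every other library it was at most 0.19 CPM. KO 1, second in this sum, had Apoe close to that of KO 4, the lowest KO library in the sum. Whether neutrophils were present, and their part in the Apoe level, was not tested.

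Apoc2 encodes the cofactor of lipoprotein lipase and lies in the same gene cluster (chromosome 7, 19671579 to 19677941). It had 1, 1, 1 and 0 counts in KO 1 to 4 and 0 in each WT library, all below the 3 counts that a count of 0 allows, and it did not pass the filter. It shares its locus with the gene model Gm44805 on the same strand, itself listed at 0 counts, and reads of the 2 cannot be told apart. How reads shared by 2 genes were counted is not given, so that these counts do not show whether Apoc2 RNA was scarce. Of the other genes of the cluster, Apoc1, an apolipoprotein that inhibits lipoprotein lipase, had 16.99, 13.8, 14.7 and 13.9 CPM in KO 1 to 4, against 19.2, 17.8, 21.7 and 24.7 CPM in WT 1 to 4. Its groups did not overlap and its log2 change of -0.49 ± 0.15 (SE) did not pass (edgeR adjusted p = 0.107). Tomm40, a mitochondrial import pore gene next to Apoe, was at -0.45 ± 0.14 (edgeR adjusted p = 0.110). The ratio of Apoe to Apoc1 CPM was 58.9 ± 15.7 in KO and 84.5 ± 14.7 in WT (SD, n = 4 each), and the ranges met, 39.7 to 73.8 in KO and 73.1 to 105 in WT. Apoe and Apoc2 lie 87.3 Mb and Nr1h2 62.4 Mb from Olfr2 on the same chromosome, and the other members on other chromosomes.

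Of the transporters, Abca1 loads cholesterol onto lipid-poor apolipoprotein A-I, and Abcg1 onto mature high-density lipoprotein. Abca1 (chromosome 4, 53030787 to 53159895) had 5, 11, 1 and 5 counts in KO 1 to 4, against 15, 2, 20 and 22 counts in WT 1 to 4. WT 2 lay among the KO libraries, so that the groups overlapped, and the log2 difference of -1.43 ± 0.72 (SE) rested on few reads. The biological coefficient of variation of Abca1, 58.7%, was at percentile 98.6 of tested genes. Its difference was 0.17 ± 0.86 in the 1600 series and -3.07 ± 0.90 in the 1700 series, and -0.83 ± 0.66 over all libraries with the length and GC offsets. Abcg1 (chromosome 17, 31057675 to 31117988) had 7.54, 4.49, 9.19 and 6.91 CPM in KO 1 to 4, against 9.34, 6.86, 7.02 and 11.7 CPM in WT 1 to 4. The groups overlapped widely, at a log2 difference of -0.30 ± 0.24 (SE), and at 0.02 ± 0.22 with the length and GC offsets.

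**Figure D2:**
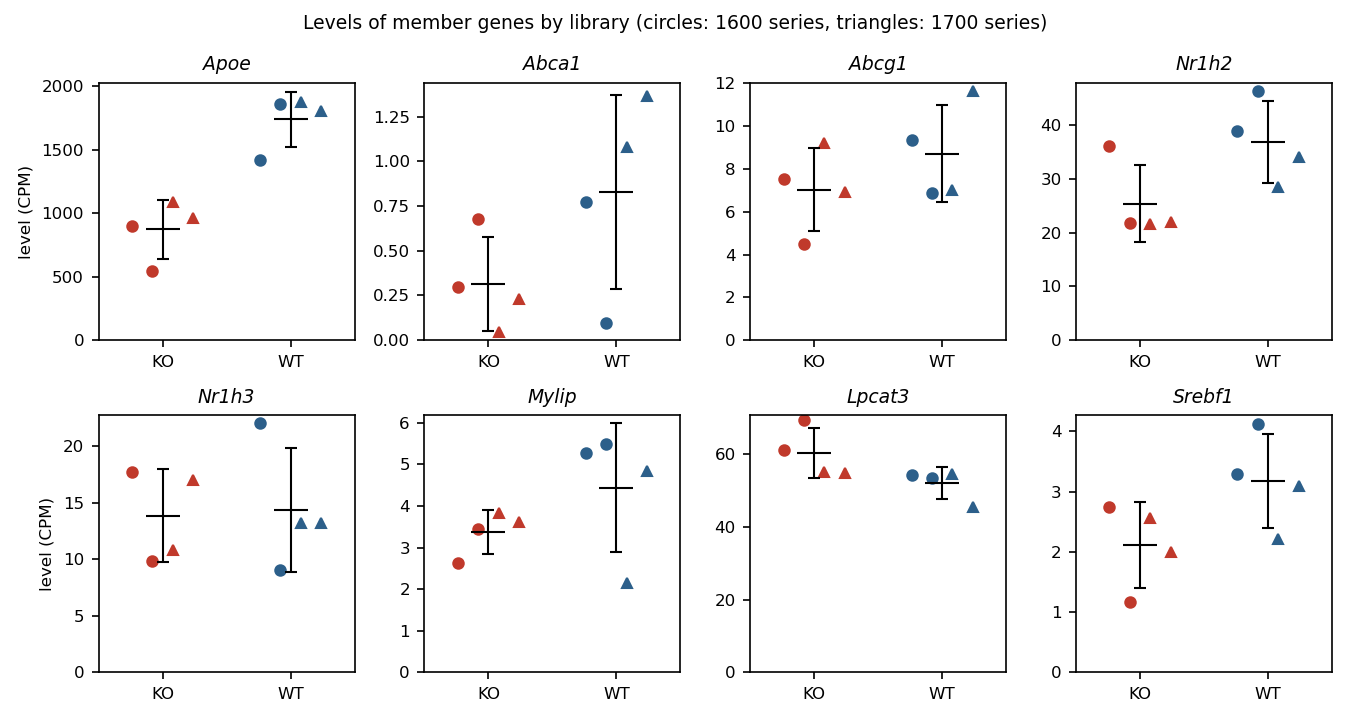
Level of each member that passed the filter (CPM, linear axes from 0) in the KO and WT libraries, with the mean and SD of 4 libraries; circles mark the 1600 series and triangles the 1700 series. Apoe lies between 549 and 1088 CPM in KO and between 1421 and 1875 CPM in WT without overlap, Lpcat3 is higher in every KO library, and the groups of the other 6 genes overlap.

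Both receptor genes were expressed. Nr1h2, the gene of LXR beta, which is expressed widely (chromosome 7, 44549616 to 44553951), had 36.1, 21.8, 21.6 and 21.99 CPM in KO 1 to 4, against 38.9, 46.4, 28.4 and 34.03 CPM in WT 1 to 4. KO 2, KO 3 and KO 4 lay below every WT library and KO 1 among them, with a log2 difference of -0.54 ± 0.20 (SE). Its transcript is at percentile 97.9 of GC content, and with the offsets the difference was -0.19 ± 0.16. Nr1h3, the gene of LXR alpha, which is prominent in liver and macrophages (chromosome 2, 91184061 to 91202834), had 17.7, 9.83, 10.8 and 17.02 CPM in KO 1 to 4, against 22.1, 9.07, 13.2 and 13.2 CPM in WT 1 to 4. Both ends of its range, 9.07 and 22.1 CPM, came from WT, and the log2 difference was -0.06 ± 0.27 (SE), or 0.11 ± 0.27 with the offsets. The per-length ratio of Nr1h3 to Nr1h2 was 0.739 ± 0.198 in KO and 0.538 ± 0.209 in WT (SD, n = 4 each), with overlapping ranges of 0.603 to 1.03 in KO and 0.261 to 0.757 in WT.

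Mylip encodes the ubiquitin ligase IDOL, which limits lipoprotein uptake (chromosome 13, 45389742 to 45412022). It had 2.63, 3.44, 3.83 and 3.62 CPM in KO 1 to 4, against 5.29, 5.49, 2.16 and 4.84 CPM in WT 1 to 4. All KO libraries lay below WT 1, WT 2 and WT 4 and above WT 3, with a log2 difference of -0.39 ± 0.28 (SE) that was -0.83 ± 0.36 in the 1600 series and 0.10 ± 0.36 in the 1700 series. Lpcat3, a membrane enzyme that puts polyunsaturated fatty acids into phospholipids (chromosome 6, 124663027 to 124704418, overlapping Emg1 on the other strand), was the only member that passed the filter with a higher mean in KO. It had 61.1, 69.4, 55.1 and 54.8 CPM in KO 1 to 4, against 54.2, 53.4, 54.6 and 45.4 CPM in WT 1 to 4. The groups did not overlap, although KO 4 and WT 3 were nearly level, and the log2 difference was 0.21 ± 0.13 (SE). Lpcat3 was also the steadiest member, with a biological coefficient of variation of 15.5%.

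Srebf1 encodes SREBP-1, the transcription factor that LXR uses to raise fatty acid synthesis (chromosome 11, 60199089 to 60222581, overlapping Rai1 on the other strand). It had 2.75, 1.17, 2.57 and 1.99 CPM in KO 1 to 4, against 3.28, 4.12, 2.21 and 3.10 CPM in WT 1 to 4. KO 2 was lowest, and WT 3 lay below KO 1 and KO 3. The log2 difference was -0.58 ± 0.29 (SE), and -0.17 ± 0.27 with the length and GC offsets.

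Of the 8 members that passed the filter, 7 had a negative log2 difference, against 50.4% of all tested genes. The median was -0.47, against -0.00 over all tested genes. Only Apoe was below in every KO library, an arrangement found in 6.06% of all tested genes, and only Lpcat3 above in every KO library, as were 5.35%. By the call used for other genes (edgeR quasi-likelihood, Benjamini-Hochberg adjusted p under 0.05) 1.06% of all tested genes were called, 0.838% as lower in KO. Since this contrast chose the members, their own calls are not given and nothing is read from these counts.

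**Figure D3:**
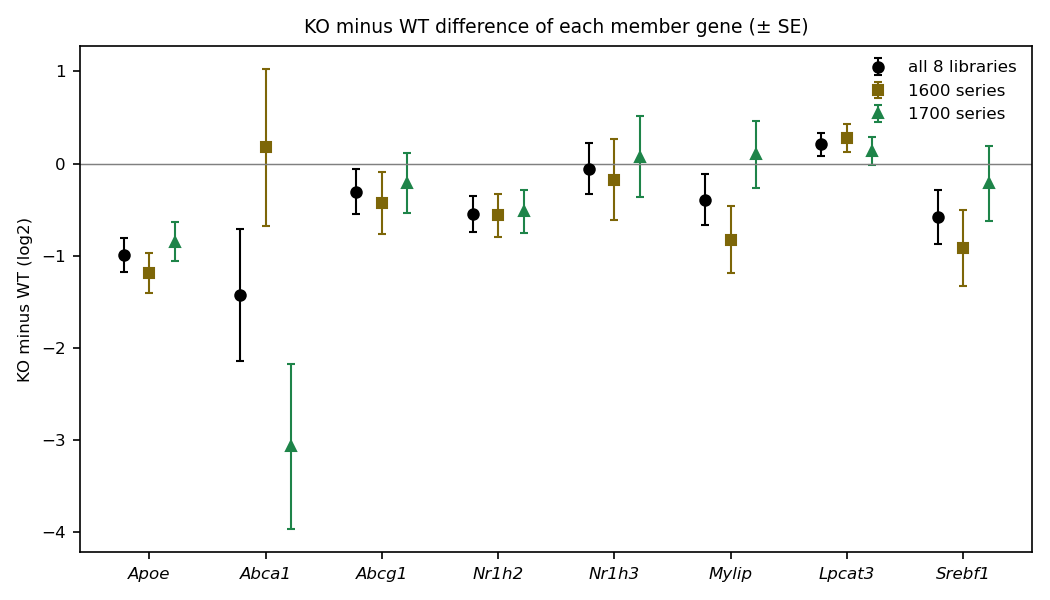
KO minus WT difference of each member (log2, ± SE) over all 8 libraries, in the 1600 series and in the 1700 series. Apoe and Nr1h2 are below 0 in each, at -1.18 and -0.85 for Apoe, while Abca1 is at 0.17 in the 1600 series and at -3.07 in the 1700 series.

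The number series permitted 2 tests that the choice of members did not use. The first asked whether the KO minus WT difference itself differed between the series (1700 minus 1600, edgeR interaction term adjusted over all genes). It called 0 of 8 members, against 0.784% of all tested genes, with 1 member at an unadjusted p under 0.05, next to 16.1% of all tested genes. Limma-voom called 0 of 8 members, against 0.508% of all tested genes. DESeq2 called 0 of the 5 for which it gave an adjusted p, which left out Abca1, Mylip and Srebf1, against 4.02% of all tested genes. The member at an unadjusted p under 0.05 was Abca1, at -3.24 ± 1.26 on the log2 scale (edgeR adjusted p = 0.229, and between 0.0985 and 0.554 over the alternatives that gave one). Mylip followed at 0.93 ± 0.51 (edgeR adjusted p = 0.405), and Apoe was at 0.34 ± 0.30 (edgeR adjusted p = 0.630). Each genotype had 2 libraries in each series. The second test compared the 1700 with the 1600 series over both genotypes and again called 0 of 8 members, against 0.0178% of all tested genes, with 2 members at an unadjusted p under 0.05, next to 6.78% of all tested genes. Limma-voom called 0 of 8 members, against 0.0178% of all tested genes. DESeq2 called 0 of the 7 for which it gave an adjusted p, which left out Abca1, against 0.651% of all tested genes. The 2 members were Apoe, at 0.34 ± 0.15, and Nr1h2, at -0.43 ± 0.16 on the log2 scale (edgeR adjusted p = 0.734 and 0.651).

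The 5 tested genes with the profile nearest to that of Apoe were Fbxl12, Bmyc, Prr5, Pkdcc and Pde4dip. Nearness was the root mean square difference over the 8 libraries of log2 CPM, centred for each gene on its own mean, and lay between 0.194 for Fbxl12 and 0.232 for Pde4dip among 11221 genes compared. Fbxl12 had 4.13, 2.70, 4.25 and 3.43 CPM in KO 1 to 4, against 5.13, 7.45, 8.26 and 5.89 CPM in WT 1 to 4. Like Apoe it was lowest in KO 2 and, among WT, in WT 1, a likeness that the choice by nearness favours. Prr5, Pkdcc and Pde4dip rested on few reads, with 11, 20 and 15 counts in KO 2. Prr5 and Pkdcc, at percentiles 98.5 and 99.7, shared with Apoe a high GC content. Srebf1 was the member closest to Apoe, at 0.373 and rank 344, followed by Abcg1 at 0.460 and Nr1h2 at 0.466, while Lpcat3 at 0.733 and Abca1 at 1.17 were farthest. The profile of Apoc1 lay at 0.400.

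**Figure D4:**
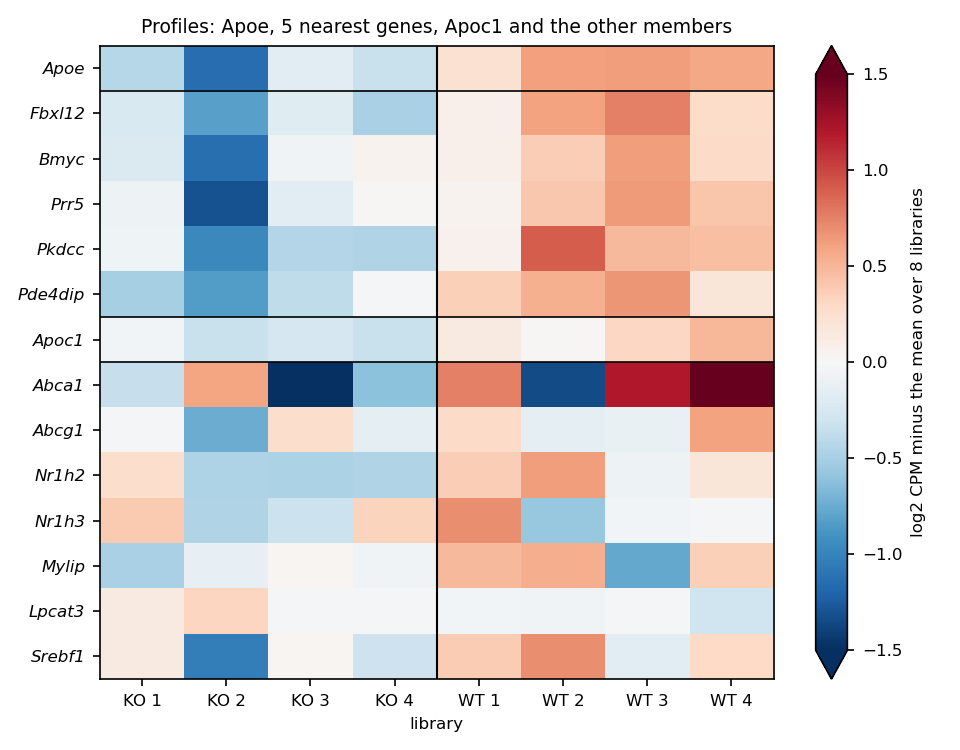
Log2 CPM of Apoe, its 5 nearest genes, Apoc1 and the other members in each library, centred on the gene's mean over 8 libraries (colour scale cut at 1.5 in each direction). KO 2 is the lowest library for Apoe and for each of its 5 nearest genes, which were chosen by their likeness to the Apoe profile, while Abca1 and Nr1h3 do not follow Apoe.

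The wider pathway was read from 8 lists of 116 genes, none of them members, of which 75 were tested. The lists were chosen with earlier results of these data known, so that their share of calls is a description. Against WT, 6 of the 75 fell in KO and 0 rose (8.0%, edgeR adjusted p under 0.05), next to 1.06% of all tested genes, and the median log2 change was -0.17. The 6 were Lrp1, Sorl1, Crebbp, Ncoa1, Ncoa2 and Abca7. All have long transcripts, with a median of 9443 bases against 3011 bases over all tested genes. With the length and GC offsets 0 of the 75 passed and 17 were at an unadjusted p under 0.05 (edgeR). That fit called 1 of all 11222 tested genes, with 1940 at an unadjusted p under 0.05, so that its 0 cannot set these genes apart. At an unadjusted p under 0.05 edgeR had 23 of the 75, next to 20.9% of all tested genes. DESeq2 called 15 of the 75, next to 6.99% of all tested genes. Limma-voom called 0 of the 75 and 0 of all tested genes. It had 23 of the 75 at an unadjusted p under 0.05, next to 21.1% of all tested genes. Leaving out 1 library gave 0 calls without KO 2, KO 3, WT 1, WT 3 or WT 4, 1 without KO 1, 5 without KO 4 and 11 without WT 2, and there were 0 without both KO 1 and KO 2. Over all tested genes the calls were 0 without KO 2, KO 3, WT 1 or WT 3. They were 3 without WT 4 and 7 without both KO 1 and KO 2.

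Among receptors and uptake genes, 2 of 12 tested fell and 0 rose. Lrp1, a large endocytic receptor for Apoe-bearing particles, had 5.504, 3.44, 5.97 and 4.69 CPM in KO 1 to 4, against 14.6, 7.26, 17.2 and 19.5 CPM in WT 1 to 4. It fell in KO, with a log2 difference of -1.57 ± 0.28 (edgeR adjusted p = 0.0341), and WT 2 lay nearest to KO. With the offsets the change was -0.45 ± 0.21. Sorl1, a sorting receptor that also binds Apoe, fell to 15.6 ± 1.9 CPM in KO, against 29.1 ± 7.1 CPM in WT (SD, n = 4 each), a log2 change of -0.90 ± 0.18 (edgeR adjusted p = 0.0432) that was -0.24 ± 0.14 with the offsets.

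Of the RXR partners and LXR coregulators, 3 of 15 fell and 0 rose, 13 of 15 were negative, and the median was -0.58, or -0.18 with the offsets. Crebbp, a histone acetyltransferase that nuclear receptors recruit, had 0.72, 1.23, 0.89 and 1.02 CPM in KO 1 to 4, against 3.49, 1.62, 4.70 and 5.27 CPM in WT 1 to 4 (log2 change -1.96 ± 0.36, edgeR adjusted p = 0.0341). The nuclear receptor coactivator genes Ncoa1 and Ncoa2 changed by -1.65 ± 0.32 and -1.73 ± 0.37 (edgeR adjusted p = 0.035 and 0.0433). With the offsets the changes of Crebbp, Ncoa1 and Ncoa2 were -1.23 ± 0.28, -1.27 ± 0.28 and -1.28 ± 0.32. For these 3 genes WT 2 was the lowest WT library. Rxra, an RXR gene, was at -0.78 ± 0.22 and did not pass (edgeR adjusted p = 0.089).

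Other LXR targets had 0 of 11 called by edgeR in either direction (2 at an unadjusted p under 0.05) and a median of -0.09. The lysosomal cholesterol carrier gene Npc2 averaged 1261 ± 62 CPM in KO and 1346 ± 79 CPM in WT, and the phosphodiesterase gene Smpdl3a 2757 ± 489 CPM in KO and 2317 ± 217 CPM in WT (SD, n = 4 each; edgeR adjusted p = 0.633 and 0.311). Genes of oxysterol supply, cholesterol storage and release had 0 of 14 called (1 unadjusted) and a median of 0.09. Their most abundant members were Plin2, a lipid droplet coat gene, at 0.34 ± 0.22, and Soat1, which esterifies cholesterol, at 0.13 ± 0.11 on the log2 scale (edgeR adjusted p = 0.402 and 0.544). SREBP processing genes had 0 of 6 called (0 unadjusted) and a median of -0.29, with Insig2 at 0.08 ± 0.12 and Insig1 at -0.38 ± 0.21 (edgeR adjusted p = 0.745 and 0.326).

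Of other ABCA and ABCG transporters 1 of 6 fell and 0 rose, with a median of 0.04. Abca7, a close relative of Abca1, had 3.71, 2.95, 2.57 and 2.50 CPM in KO 1 to 4, against 5.75, 5.93, 5.02 and 6.63 CPM in WT 1 to 4. Its groups lay well apart, and it fell, with a log2 difference of -0.995 ± 0.21 (edgeR adjusted p = 0.0432), or -0.28 ± 0.19 with the offsets, at percentile 95.3 of GC content and 92.0 of length. Relatives of Lpcat3 had 0 of 7 called (3 unadjusted) and a median of -0.10; Lpcat2 was at -0.00 ± 0.11 and Mboat7 at -0.39 ± 0.15 (edgeR adjusted p = 0.999 and 0.16). The apolipoprotein list had 0 of 4 tested genes called (4 unadjusted) and a median of -0.04. Its most abundant genes, Apool and Apoo, which encode mitochondrial inner membrane proteins, were at 0.38 ± 0.16 and 0.51 ± 0.15 (edgeR adjusted p = 0.207 and 0.089).

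**Figure D5:**
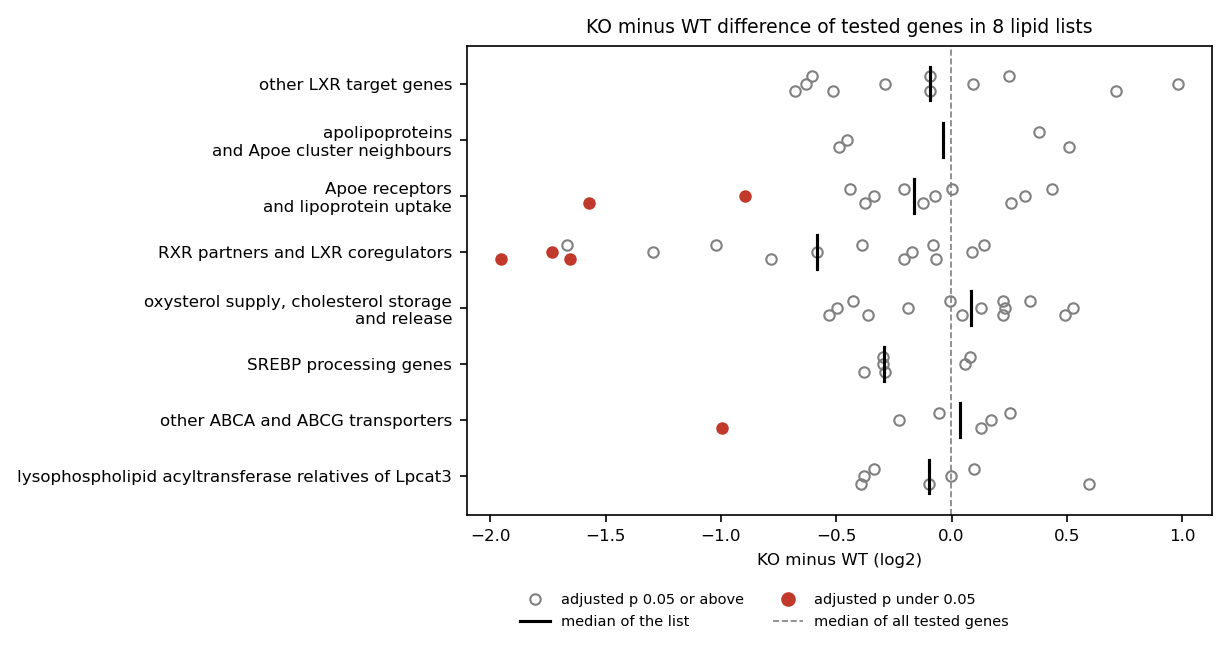
KO minus WT difference (log2) of every tested gene of the 8 lists; filled points passed an adjusted p of 0.05 (edgeR), bars mark list medians and the dashed line the median of all tested genes. The 6 filled points lie between -1.96 and -0.90, in 3 of the 8 lists.

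Other cells of the spleen that make Apoe or could enter the sort were followed by their markers. The 16 splenic macrophage markers summed to between 885 and 1138 CPM in KO and between 851 and 1211 CPM in WT, 14 were tested and 0 were called by edgeR (3 at an unadjusted p under 0.05). Most of this sum came from Adgre1 and Trf, which monocytes also express. Of the defining red pulp genes, Spic had 12.1 to 72.8 CPM in KO and 17.8 to 64.5 CPM in WT, Vcam1 2.03 to 2.99 CPM in KO and 1.12 to 1.67 CPM in WT (edgeR adjusted p = 0.0983), and Timd4 at most 0.33 CPM in any library. Spic was lowest in KO 2, the library with the lowest Apoe, and highest in KO 4 and WT 4. Among WT it was lowest in WT 3, the library with the highest Apoe. Other markers of the list varied in their order. Adgre1 (387 CPM), C1qb (27.5 CPM) and Slc40a1 (3.75 CPM) were highest in KO 2. Cd163 had 1.20 and 1.60 CPM in KO 1 and KO 2, against 4.25 and 4.17 CPM in KO 3 and KO 4. Trf had 287 and 350 CPM in KO 1 and KO 2, against 429 and 457 CPM in KO 3 and KO 4. Dendritic cell markers summed to between 198 and 687 CPM in KO and between 425 and 638 CPM in WT, with Bst2 lower in KO (1 of 4 tested called, 1 unadjusted). Nonclassical monocyte markers summed to between 384 and 642 CPM in KO and between 534 and 738 CPM in WT. Of these 10, 9 were negative, at a median log2 change of -0.59. By edgeR, 6 of the 10 had an unadjusted p under 0.05 and 1 was called (Pou2f2, lower). Proliferation markers summed to 206 to 743 CPM in KO and 129 to 214 CPM in WT. By edgeR, 10 of 10 were positive and at an unadjusted p under 0.05, with a median log2 change of 2.14, and 1 was called (Kif11). Of all tested genes, 20.9% had an unadjusted p under 0.05 and 1.06% were called. B cell markers summed to 204 to 362 CPM in KO and 181 to 371 CPM in WT. T and NK cell, erythroid and platelet, and stromal and endothelial markers summed to at most 22.6 CPM in any library. Nkg7 was the only call among all of these, higher in KO at a log2 change of 1.92. It rested on few reads, 23 to 46 counts in KO and 7 to 9 in WT. The part of these cells in the levels of the members was not tested.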

How the data were processed

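RNA of sorted Ly6Chigh monocytes was made into cDNA by oligo-dT priming and template switching (SMART-Seq v4), per the labels' protocols, a method whose recovery can depend on transcript length and RNA quality. Whole-number counts, unnormalized, were deposited in 1 table by the authors, with a column for each of 8 libraries (4 KO, 4 WT). Per the submitters' processing notes, HISAT2 2.0.5, featureCounts 1.5.0-p3 and GRCm38 were used; not given in the sources used here were the strand setting, annotation and filters. Counts of PCR reads are not independent molecules, so that the floor of 3 counts covers counting error only.

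The counts went into the robust quasi-likelihood test of edgeR 4.0.16 (R 4.3.3), after filterByExpr and TMM scaling, and p-values were adjusted over all 11222 genes by Benjamini-Hochberg (threshold 0.05), for KO against WT and, with genotype and number series combined, for the interaction and the series. CPM used TMM library sizes, and log2 CPM a prior count of 2. Library pairs of a genotype differed beyond sampling noise (chi-square per degree of freedom 16.5 to 77.2), and each library was 1 replicate. Exon lengths and coordinates came from GENCODE M21 (GRCm38), which held 52073 of 56748 identifiers. The 8 lipid and 11 marker lists and the members were chosen with earlier results of these data known. Genes named were Olfr2, the members, the 5 nearest to Apoe, up to 4 called genes per lipid list or else its 2 most abundant, and the 2 most abundant markers. Apoc1, Tomm40, Rxra, Spic, Vcam1, Timd4, C1qb, Slc40a1, Cd163, S100a9, Ly6g, Bst2, Pou2f2, Kif11 and Nkg7 were added after their values were seen. Alternatives were RLE factors, library totals, other filters, DESeq2 1.42.0, limma-voom (limma 3.58.1), a series covariate, a replicate block, offsets for length and GC content (mgcv 1.9.3) and libraries left out. The edgeR code was tested on simulated data.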

Additional observations from a re-analysis of the deposited data

Results flagged for a closer look

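Within 64 groups of 4 libraries, made of the members, the called lipid genes, Apoc1, the genes nearest to Apoe, marker sums and the receptor ratio, 4 held a library far from the other 3, where chance gives about 3.2. WT 1 stood below the other WT libraries in Apoe, at 1421 CPM. KO 1 stood above the other KO libraries in Nr1h2, at 36.1 CPM. WT 4 stood below the other WT libraries in Lpcat3, at 45.4 CPM. KO 4 stood above the other KO libraries in the per-length ratio of Nr1h3 to Nr1h2, at 1.03.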

How the results depend on the processing

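The KO minus WT difference of Apoe was negative under all alternatives run, with one value of -0.64 under the length and GC offsets beyond the spread of the libraries; leaving out 1 library gave -1.11 to -0.82. Among the other members Abca1 changed sign with the 1600 series fitted alone (0.16), Abcg1 and Nr1h3 with the offsets (0.02 and 0.11), Mylip and Nr1h3 with the 1700 series fitted alone (0.10 and 0.08), and Nr1h3 leaving out 1 library (-0.22 to 0.23). Genes called in KO against WT numbered 244 with library totals, 742 with no filter, 784 with DESeq2, 0 with limma-voom, 251 with the series covariate, 1 with the offsets, 7 without both KO 1 and KO 2, and 0 to 515 leaving out 1 library (0 without KO 2, KO 3, WT 1 or WT 3, 3 without WT 4, 64 without KO 1, 235 without KO 4 and 515 without WT 2), against 119. Lipid list calls were 13 with no filter, 15 with DESeq2, 0 with limma-voom, with the offsets, without both KO 1 and KO 2 and within the 1600 series, and 0 to 11 leaving out 1 library, against 6. Interaction calls were 28 with library totals, 645 with no filter, 451 with DESeq2, 57 with limma-voom and 3 to 628 leaving out 1 library, against 88, and series calls 1 with RLE factors, 186 with no filter, 73 with DESeq2 and 0 to 17 leaving out 1 library, against 2. The cause of these shifts was not tested.

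Same-numbered KO and WT libraries shared only a number (correlation of deviations -0.0494 to 0.0926). With the replicate block 244 genes were called in KO against WT, 3 of the lipid lists and 155 for the interaction; a block leaves no series contrast, which was not run with it. No member interaction or series difference passed under an alternative that gave it an adjusted p; DESeq2 gave none for the Abca1, Mylip and Srebf1 interactions and the Abca1 series difference, and Abca1 was not tested under the stricter filter. Their signs turned for the Lpcat3 interaction with library totals (0.0561) and the Abca1 series difference with limma-voom (0.0786). Leaving out 1 library leaves an arm with 1 library, assumed to vary like the others; interactions then spanned -0.11 to 0.64 for Abcg1, -0.28 to 0.46 for Nr1h2, -0.53 to 0.76 for Nr1h3 and -0.27 to 0.00096 for Lpcat3. Series differences spanned -0.84 to 0.90 for Abca1, -0.37 to 0.28 for Nr1h3, -0.51 to 0.0675 for Mylip and -0.38 to 0.24 for Srebf1. Depth limits Abca1 most, and Apoc2 is limited by depth and by its shared locus. Per-length levels used the union of exons; with the longest transcript Lpcat3 was at 23.6 and Srebf1 at 0.616.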
